A study of Mus musculus with 4 samples.

Results

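Cells sense oxygen through prolyl hydroxylases that use oxygen to mark the hypoxia inducible factor (HIF) alpha subunits, which the von Hippel-Lindau protein then targets for destruction. When oxygen is short the alpha subunits persist, pair with the constant partner ARNT and raise transcription of a set of target genes, and some of these targets are the hydroxylases themselves, which closes a feedback loop. The HIF alpha subunits are controlled mainly at the level of protein, which an RNA array does not measure. In the embryo the pathway is required for normal heart and vessel development.

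The 10 genes described here are the alpha subunits Hif1a and Epas1, their partner Arnt, the ubiquitin ligase subunit Vhl, the oxygen-dependent asparagine hydroxylase Hif1an, the prolyl hydroxylases Egln1, Egln2 and Egln3, and the HIF target genes Kdm3a and Ankrd37. They were taken by gene name from the array files, with the older names Jmjd1a for Kdm3a and Vhlh for Vhl, and the rule uses no measured value. All 10 were among the 19091 genes with a usable probe. They are read by 19 of the 41174 probes on each array, and all 19 passed the filter on dim probes.

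The tissue was the atrioventricular canal (AVC) of the e10.5 mouse embryo heart, the segment between atria and ventricles that forms the conduction delay and the valve cushions. Each of the 4 arrays carried 1 pool of Tbx3 mutant tissue labelled with Cy5 and 1 pool of wild type control tissue labelled with Cy3, each pool from 5 hearts. Both genotypes were on the same mixed background, 50% Sv129 and 50% C57Bl6. The labels call the 4 pairs biological replicates. The mutant allele is called hypomorphic, with no further detail in the labels, and no array had the dyes swapped, so an effect of dye on a single probe and an effect of genotype cannot be told apart.

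Values are given in 2 forms. A level is the log2 normalised intensity of a probe in 1 pool and is compared only with the same probe in other pools. A log2 ratio is the mutant level minus the control level on the same array, so that a positive ratio means higher in the mutant. The test asked whether the mean ratio over 4 arrays differed from 0 (limma, 2-sided, Benjamini-Hochberg adjustment over all genes or all probes, threshold 0.05).

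The targeted gene checked the labels: the Tbx3 log2 ratio was -1.35, -1.40, -1.43 and -1.21 on arrays 1 to 4 (adjusted p = 0.0454, limma). It was the single gene past the threshold, 0.00524% of those tested, and 2778 genes had an unadjusted p under 0.05. Array 2 stood apart. Its log2 ratios correlated across genes with those of arrays 1, 3 and 4 at 0.07, -0.06 and -0.02, whereas arrays 1 and 3 correlated at 0.25, arrays 1 and 4 at 0.35 and arrays 3 and 4 at 0.66, and their SD was 0.49 against 0.26 to 0.30 on the other arrays. Results for the HIF pathway genes are therefore also given without array 2.

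The upstream sequences of Egln3, Ankrd37, Egln1, Egln2, Kdm3a and Hif1a are shown because the HIF complex binds a short core, ACGTG or GCGTG, on either strand. Each sequence shown holds a core. Those of Vhl and Hif1an, which hold neither core, and of Arnt, which holds 1, are not printed. The sequences are RefSeq's, on build GRCm38.p6, each running 5′ to 3′ over the 250 bases before the gene's start. Every core is in capitals on whichever strand it lies. The capitals that end the Egln2 sequence are the upstream part of cores that run past the start.
Egln3 promoter, chr12:54203875-54204124 (minus strand): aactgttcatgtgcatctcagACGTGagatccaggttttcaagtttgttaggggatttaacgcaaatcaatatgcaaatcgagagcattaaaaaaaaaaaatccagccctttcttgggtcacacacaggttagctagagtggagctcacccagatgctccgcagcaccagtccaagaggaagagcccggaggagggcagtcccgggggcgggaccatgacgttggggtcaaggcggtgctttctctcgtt
Ankrd37 promoter, chr8:45999851-46000100 (minus strand): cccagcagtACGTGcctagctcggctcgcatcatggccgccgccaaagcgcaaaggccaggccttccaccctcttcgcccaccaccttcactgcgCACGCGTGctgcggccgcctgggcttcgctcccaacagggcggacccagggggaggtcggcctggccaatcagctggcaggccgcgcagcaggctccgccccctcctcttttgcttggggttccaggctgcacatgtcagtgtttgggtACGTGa
Egln1 promoter, chr8:124949255-124949504 (minus strand): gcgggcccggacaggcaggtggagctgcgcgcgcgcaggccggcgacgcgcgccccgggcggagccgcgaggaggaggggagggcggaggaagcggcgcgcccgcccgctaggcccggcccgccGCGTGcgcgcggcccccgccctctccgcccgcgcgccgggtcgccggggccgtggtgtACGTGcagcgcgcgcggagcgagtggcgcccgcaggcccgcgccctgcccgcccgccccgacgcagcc
Egln2 promoter, chr7:27166803-27167052 (minus strand): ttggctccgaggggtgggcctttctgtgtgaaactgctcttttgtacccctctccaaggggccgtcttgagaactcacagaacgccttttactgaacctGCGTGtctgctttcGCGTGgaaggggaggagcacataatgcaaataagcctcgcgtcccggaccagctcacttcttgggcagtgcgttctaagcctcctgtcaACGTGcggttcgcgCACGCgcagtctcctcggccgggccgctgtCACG
Kdm3a promoter, chr6:71632918-71633167 (minus strand): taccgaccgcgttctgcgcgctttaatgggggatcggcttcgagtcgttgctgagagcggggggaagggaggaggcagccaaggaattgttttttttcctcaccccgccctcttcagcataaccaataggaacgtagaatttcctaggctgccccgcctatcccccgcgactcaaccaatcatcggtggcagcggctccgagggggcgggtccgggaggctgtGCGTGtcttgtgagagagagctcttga
Hif1a promoter, chr12:73907617-73907866 (plus strand): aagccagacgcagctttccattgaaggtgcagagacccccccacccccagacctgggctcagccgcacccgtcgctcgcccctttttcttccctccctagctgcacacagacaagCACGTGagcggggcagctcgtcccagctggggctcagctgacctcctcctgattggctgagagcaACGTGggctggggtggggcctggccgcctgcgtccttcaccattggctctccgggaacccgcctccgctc

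Promoter windows, which run from 250 bases before to 50 bases after a start, were at hand for 9 of the 10 genes, all but Epas1, and 12 windows in all. At least 1 core lay in 8 of the 12 windows and in a window of 7 of the 9 genes, and ACGTG lay in a window of 5 genes. Of all 32544 windows 44.0% held either core and 19.7% held ACGTG. Egln3 held 1 core, an ACGTG that begins at position -229 from the start. Egln1 held a GCGTG at -126 and an ACGTG at -68. Ankrd37 held 4 cores, a number reached by 3.88% of windows, and its cores at -155 and -152 overlap on opposite strands within a single CACGCGTG.

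The 2 windows of Egln2 differed, with 6 cores in the first and 1 in the second, and 0.698% of all windows held 6 or more. In the first, 4 of the 6 lie wholly before the start, and those at -4 and -3 are 1 palindrome read on both strands. Hif1a held 3, of which those at -135 and -134 are the same palindrome read on both strands. Kdm3a had a single GCGTG at -27 in the first of its 3 windows, and Arnt a single GCGTG at -29. Neither core was found in the windows of Vhl and Hif1an. These counts describe letters in a window, and binding was not measured.

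Egln3, Ankrd37 and Egln1 were the 3 genes of the set with higher levels in all 4 mutant pools than in any control pool. Hif1a was the 1 gene with lower levels in all 4 mutant pools than in any control pool. Of all genes, 3.89% had their mutant levels wholly above and 5.11% wholly below the control levels. Differences in a dissected tissue can come from fewer cells of a type or from less RNA per cell, and the arrays cannot tell these apart. None of the 10 genes passed the threshold over the 4 arrays.

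**Figure D1:**
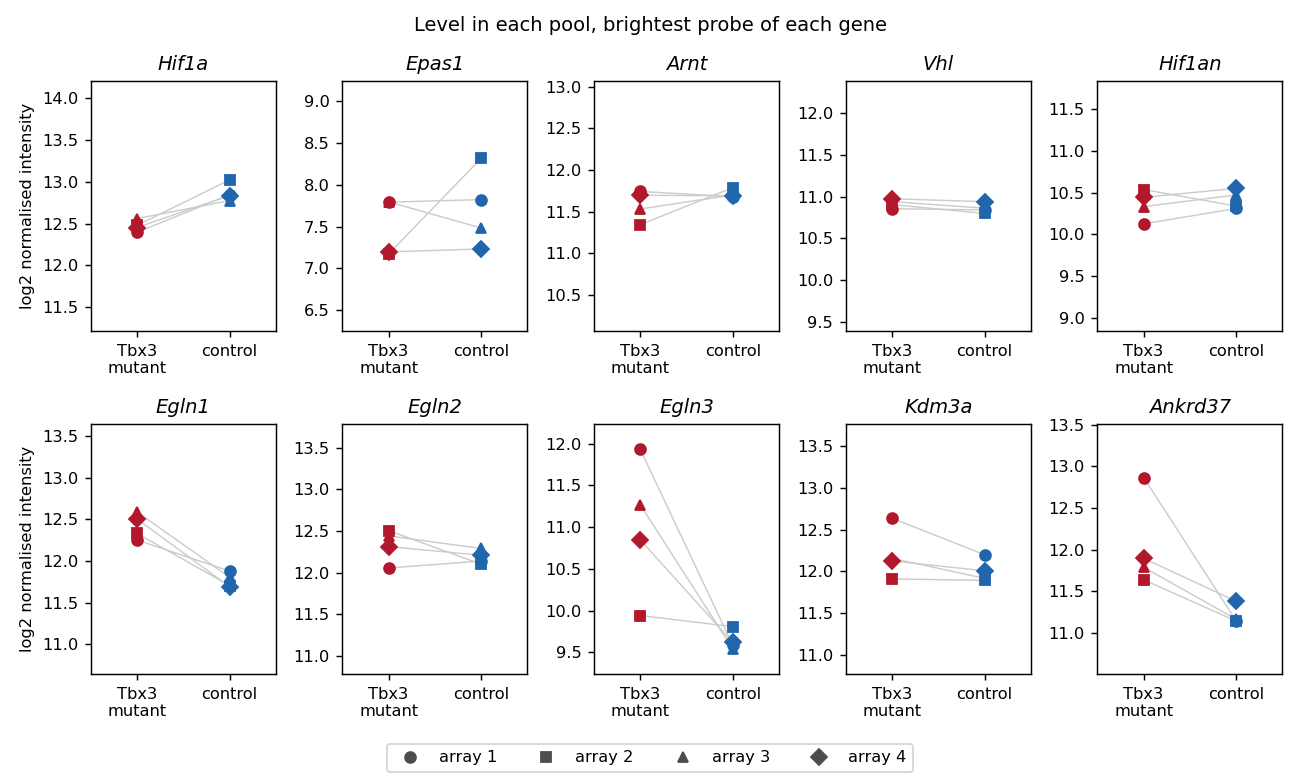
Level of each gene in every pool (log2 normalised intensity of the gene's brightest probe), Tbx3 mutant pools left in red and control pools right in blue, with a grey line joining the 2 pools of an array. Every panel spans the same number of log2 units; the 4 mutant pools lie above all control pools for Egln1, Egln3 and Ankrd37 and below them for Hif1a.

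Egln3, a prolyl hydroxylase whose own transcript is a known HIF target, had the highest ratio of the set. It was read by 1 probe, A_52_P387009, at chr12:52198570-52198629 of build mm7, the build in the array files. Its level was 11.93, 9.94, 11.27 and 10.85 in mutant pools 1 to 4, against 9.58, 9.81, 9.54 and 9.62 in control pools 1 to 4. The mutant pools were all higher than the control pools, but mutant pool 2 lay close to its control, and the mutant levels spread over 1.99 log2 units against 0.27 in the controls. The log2 ratio was 2.35, 0.13, 1.73 and 1.23 on arrays 1 to 4, with a mean of 1.36 ± 0.94 (SD, n = 4), a 2.57-fold difference with a 95% interval of 1.39 to 4.73. Of all genes 0.0471% had a higher mean ratio. The test gave an adjusted p of 0.208 (limma; unadjusted p = 0.00997). Without array 2 the mean ratio was 1.77 ± 0.56 (SD, n = 3) and passed the threshold, with an adjusted p of 0.0477 (limma), in a fit where 1.01% of all genes did so. Egln3 was the 1 gene of the 10 to pass in that fit. With a running median over intensity also removed, Egln3 was at 1.76 without array 2 and no longer passed (adjusted p = 0.0605, limma). Leaving out array 1, 3 or 4 instead gave mean ratios of 1.03, 1.24 and 1.40, with adjusted p-values of 0.411, 0.619 and 0.587 (limma). Array 2 was thus the only array whose removal brought Egln3 past the threshold, and it held the lowest Egln3 ratio.

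Ankrd37 encodes an ankyrin repeat protein whose transcript is induced by hypoxia in several cell types. Its single probe, A_52_P319438, lies at chr8:44774913-44774972 (mm7). Its level was 12.87, 11.64, 11.79 and 11.90 in mutant pools 1 to 4, against 11.15, 11.14, 11.17 and 11.38 in control pools 1 to 4. Mutant pool 1 was far above the other mutant pools, which in turn lay above every control. The log2 ratio was 1.72 on array 1 and between 0.50 and 0.62 on arrays 2 to 4, with a mean of 0.84 ± 0.59 (SD, n = 4), a 1.79-fold difference with a 95% interval of 1.21 to 2.65 and an adjusted p of 0.219 (limma). Without array 1 the mean ratio was 0.54, and without array 2 it was 0.95 with an adjusted p of 0.115 (limma).

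Egln1, the hydroxylase that does most of the work on HIF1A in cells with normal oxygen, was read by a pair of probes that gave like values. The brighter probe, A_52_P172619, lies at chr8:123496739-123496798 (mm7). There its level was 12.25, 12.33, 12.59 and 12.51 in mutant pools 1 to 4, against 11.88, 11.71, 11.81 and 11.69 in control pools 1 to 4. Here the mutant pools were close together, all were above the controls, and pool 2 did not stand apart. The log2 ratio was 0.37, 0.63, 0.78 and 0.81 on arrays 1 to 4, with a mean of 0.65 ± 0.20 (SD, n = 4), a 1.57-fold difference with a 95% interval of 1.33 to 1.84 and an adjusted p of 0.132 (limma).

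The dimmer Egln1 probe, A_51_P186899, had levels of 10.004, 10.18, 10.21 and 10.19 in mutant pools 1 to 4, and all 4 control pools were at 9.64. Its mean log2 ratio was 0.51 ± 0.09 (SD, n = 4; adjusted p over probes = 0.141, limma). Thus both probes placed every mutant pool above every control pool, and array 1 had the lowest ratio at each. Without array 2 the brighter probe gave 0.66, with an adjusted p of 0.0665 (limma).

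Egln2, the third prolyl hydroxylase, did not separate the genotypes. Its probe A_51_P385415 lies at chr7:24078006-24078065 (mm7). Its level was 12.06, 12.50, 12.44 and 12.31 in mutant pools 1 to 4, against 12.14, 12.10, 12.29 and 12.21 in control pools 1 to 4. Mutant pool 1 was below all control pools and the other mutant pools above them. The mean log2 ratio was 0.14 ± 0.20 (SD, n = 4) with a 95% interval of -0.09 to 0.37, and an adjusted p of 0.536 (limma). Without array 2 it was 0.06.

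**Figure D2:**
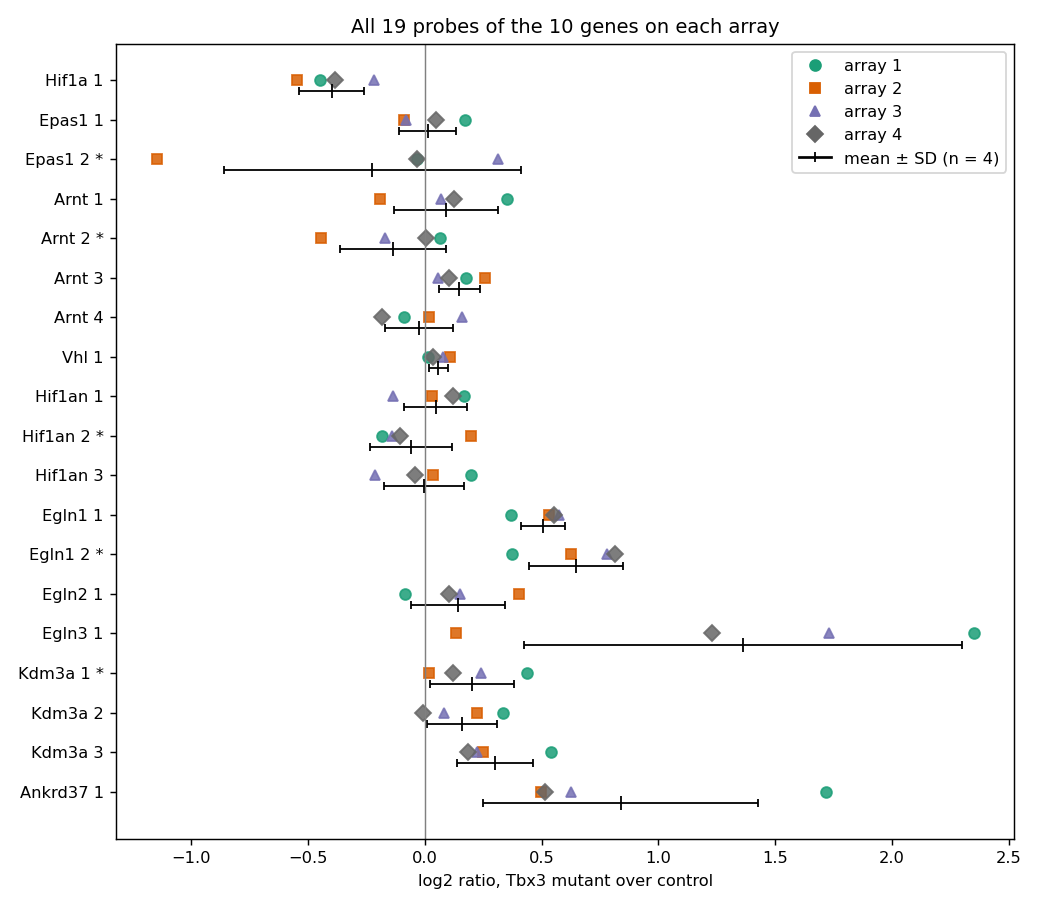
Log2 ratio of Tbx3 mutant over control at each of the 19 probes on each of the 4 arrays (coloured symbols), with the mean and SD below them in black; an asterisk marks the brightest probe where a gene has more than 1. Both Egln1 probes, Egln3 and Ankrd37 lie right of 0 on all 4 arrays, Hif1a left of 0 on all 4, and the array 2 value of Egln3 is 0.13.

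Hif1a, the alpha subunit found in nearly all cells, was the only gene of the set that was lower in the mutant on all 4 arrays. Its probe A_51_P387608 lies at chr12:71899015-71899075 (mm7). Its level was 12.39, 12.48, 12.56 and 12.45 in mutant pools 1 to 4, against 12.84, 13.02, 12.78 and 12.84 in control pools 1 to 4. The groups did not overlap, and control pool 2, at 13.02, lay above the other control pools at 12.78 to 12.84. The log2 ratio was -0.45, -0.55, -0.22 and -0.38 on arrays 1 to 4, with a mean of -0.40 ± 0.14 (SD, n = 4), or 0.758 of the control level with a 95% interval of 0.665 to 0.865. The adjusted p was 0.144 (limma), and without array 2 the mean was -0.35 with an adjusted p of 0.0838 (limma). A single probe reads Hif1a, and with the arrays centred on their medians in place of loess its ratio was 0.0073. That centring moved the median ratio of all genes to 0.23, and relative to this shift Hif1a was at -0.22.

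Epas1 encodes HIF2A, the alpha subunit best known from endothelium, lung and the cells that make erythropoietin. Its brighter probe, A_52_P293443, at chr17:85101159-85101218 (mm7), had levels of 7.79, 7.17, 7.80 and 7.20 in mutant pools 1 to 4, against 7.82, 8.32, 7.48 and 7.23 in control pools 1 to 4. Control pool 2 was the highest of the 8 pools, and the groups overlapped. The log2 ratio was -1.15 on array 2 and -0.03, 0.31 and -0.04 on arrays 1, 3 and 4, with a mean of -0.22 ± 0.64 (SD, n = 4; adjusted p = 0.711, limma) and of 0.08 without array 2. The other probe, A_51_P307954, at chr17:85133910-85133969 (mm7), was well above background in all 4 mutant pools but only 2 control pools, with a mean log2 ratio of 0.01 ± 0.12 (SD, n = 4). The 2 Epas1 probes thus differed on array 2, where the dim one gave -0.09. The dim probe is listed under a RefSeq transcript and the brighter one under another record, and whether both read the same transcript was not tested.

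Arnt, the shared partner, was read by 4 probes with mean log2 ratios between -0.14 and 0.15. At the brightest, A_52_P324866 at chr3:95370959-95371018 (mm7), its level was 11.74, 11.35, 11.53 and 11.70 in mutant pools 1 to 4, against 11.68, 11.79, 11.70 and 11.69 in control pools 1 to 4. Mutant pools 2 and 3 were below the controls, and the others were level with them. The mean log2 ratio was -0.14 ± 0.23 (SD, n = 4; adjusted p = 0.589, limma), and it was -0.03 without array 2. The probes did not agree in sign: A_52_P577150, whose mapped span of 427 bases is wider than its 60 bases, gave 0.15 ± 0.09, and A_51_P494196 gave 0.09 ± 0.22 (SD, n = 4 each).

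Vhl, the substrate-binding subunit of the ligase, had the smallest spread of ratios. Its probe A_52_P670070 lies at chr6:113792160-113792219 (mm7). Its level was 10.86, 10.90, 10.94 and 10.97 in mutant pools 1 to 4, against 10.84, 10.80, 10.86 and 10.94 in control pools 1 to 4. The mutant pool was the higher on every array by between 0.01 and 0.11, and the groups overlapped. The mean log2 ratio was 0.06 ± 0.04 (SD, n = 4) with a 95% interval of -0.09 to 0.20 and an adjusted p of 0.684 (limma), and without array 2 it was 0.04.

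Hif1an hydroxylates an asparagine of the alpha subunits and so limits their hold on coactivators. Its brightest probe, A_51_P521171 at chr19:44469540-44469599 (mm7), had levels of 10.13, 10.54, 10.33 and 10.44 in mutant pools 1 to 4, against 10.31, 10.34, 10.47 and 10.55 in control pools 1 to 4. The groups overlapped, with array 2 alone showing the mutant higher. The 3 Hif1an probes had mean log2 ratios of -0.06 ± 0.17, 0.05 ± 0.14 and -0.0042 ± 0.17 (SD, n = 4 each), and the brightest had an adjusted p of 0.791 (limma). Without array 2 the brightest was at -0.14 with an adjusted p of 0.236 (limma).

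Kdm3a, a histone H3 lysine demethylase whose transcript is a known HIF target, was read by 3 probes with positive mean ratios. At the brightest, A_51_P116309 at chr6:71607190-71607249 (mm7), its level was 12.64, 11.91, 12.16 and 12.13 in mutant pools 1 to 4, against 12.20, 11.89, 11.92 and 12.01 in control pools 1 to 4. The mutant pool was the higher on every array, by 0.44 on array 1 and by 0.02 on array 2, and the groups overlapped. The mean log2 ratio was 0.20 ± 0.18 (SD, n = 4; adjusted p = 0.366, limma), and without array 2 it was 0.27 with an adjusted p of 0.150 (limma). Probe A_52_P133965, at chr6:71609847-71609906 (mm7), separated the groups, with levels of 9.70, 9.37, 9.23 and 9.39 in mutant pools 1 to 4, against 9.17, 9.12, 9.004 and 9.20 in control pools 1 to 4. Its mean ratio was 0.30 ± 0.16 (SD, n = 4; adjusted p over probes = 0.245, limma), and the third probe gave 0.16 ± 0.15 (SD, n = 4).

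Over the whole set, 5 of 10 genes were higher in the mutant on all 4 arrays, namely Egln1, Egln3, Ankrd37, Kdm3a and Vhl, against 12.3% of all genes. Hif1a was the 1 gene lower on all 4, against 12.6% of all genes. The mean ratio was positive for 6 of 10, against 50.3% of all genes. The median ratio of the set was 0.10 and that of all genes 0.0012. An unadjusted p under 0.05 was reached by 3 genes that were higher, Egln1, Egln3 and Ankrd37, against 7.10% of all genes, and by 1 that was lower, Hif1a, against 7.45%. Of the 19 probes 0 passed the adjusted threshold, as did 0% of all probes, and 6 had an unadjusted p under 0.05, against 13.7% of all probes (limma).

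Weighting the arrays by their fit, which gives an array with large deviations less say, brought 2 of the 10 genes past the threshold, Egln1 with an adjusted p of 0.0402 and Egln3 with 0.0485 (limma), in a fit where 2.11% of all genes passed. Centring each array on its median in place of the loess curve brought 6 of the 10 past it, in a fit where 40.7% of all genes passed. That centring moved the median ratio of all genes to 0.23. Relative to this shift the ratios were 1.44 for Egln3, 0.97 for Ankrd37, 0.80 for Egln1, 0.36 for Kdm3a, 0.30 for Egln2, 0.16 for Vhl, 0.02 for Hif1an, -0.0036 for Arnt, -0.22 for Hif1a and -0.37 for Epas1. The order of the 3 highest genes was thus the one found after loess. With a running median over intensity removed, no probe of the 10 genes changed sign or side of the threshold.

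**Figure D3:**
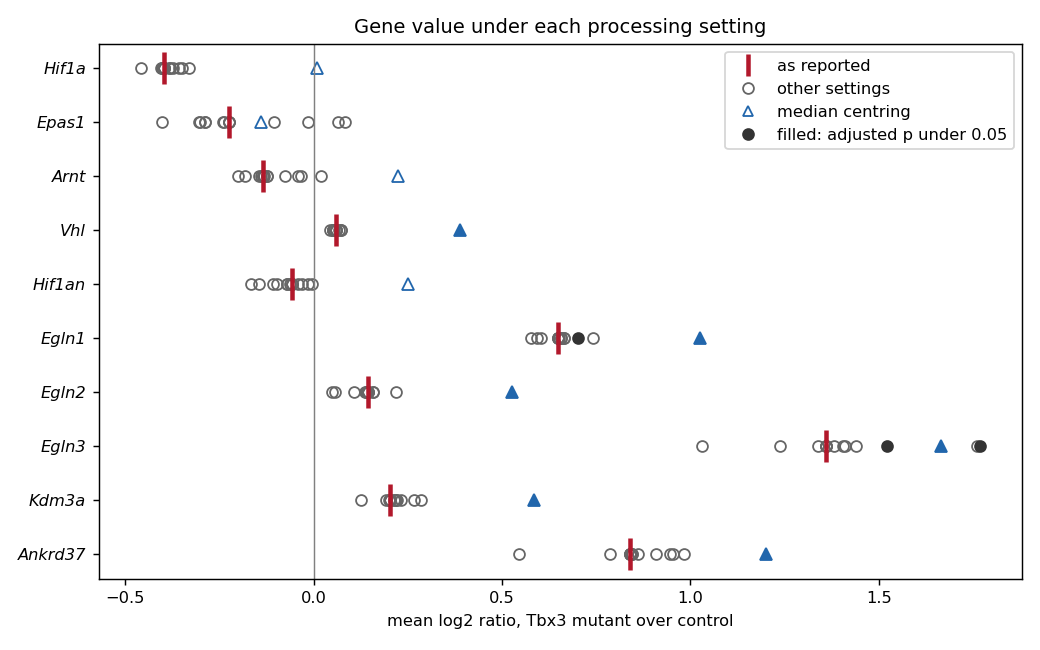
Mean log2 ratio of Tbx3 mutant over control for each gene's value as reported (red bar) and under 15 other processing settings (circles, and triangles for median centring); filled symbols passed an adjusted p of 0.05. Egln3, Egln1 and Ankrd37 stay right of 0 under every setting drawn, and Hif1a reaches 0.0073 under median centring.

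Across arrays the responses of the hydroxylases and targets had different shapes. Egln3, Ankrd37 and the brightest Kdm3a probe had their highest ratio on array 1 and their lowest on array 2. The other Kdm3a probes were highest on array 1 and lowest on array 4. Both Egln1 probes were lowest on array 1, the brighter being highest on array 4 and the dimmer on array 3. The genes nearest to Egln3 over the 4 arrays, by root mean square difference of the ratios, were Nppb, which encodes the B-type natriuretic peptide of stretched heart muscle, at 0.276, Nags, the enzyme of N-acetylglutamate synthesis, at 0.376, and Stc2, a secreted glycoprotein and known HIF target, at 0.424. Nppb had log2 ratios of 2.25, 0.51, 2.06 and 1.45 on arrays 1 to 4.

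The genes nearest to Ankrd37 were the transcript listed as ENSMUST00000014957 at 0.132, the stress-induced transcription factor gene Atf3 at 0.149 and Depp1 at 0.191. Those nearest to Egln1 were the transcription factor gene Elf2 at 0.0809, the kinase gene Map2k1 at 0.0940 and Platr26 at 0.119. Each search ran over all 19091 genes and 4 arrays, so near neighbours are found for any gene.

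Other parts of the pathway were read through lists of genes. Of 49 textbook HIF targets, 46 were measured. Among these, 41 had a positive mean ratio, against 50.3% of all genes, and 31 were higher on all 4 arrays, against 12.3%. At an unadjusted p under 0.05, 30 were higher, against 7.10% of all genes, and 1, the transferrin gene Trf, was lower, against 7.45%. None passed the adjusted threshold (limma). The median ratio of the list was 0.47, with medians of 0.63, 0.19, 0.60 and 0.45 on arrays 1 to 4. Without array 2 it was 0.53. In that fit 15 genes of the list, all 15 higher, passed the threshold, as did 1.01% of all genes. The list was lowest on array 2, as were Egln3, Ankrd37 and the brightest Kdm3a probe.

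The targets with the largest ratios differed in their values on array 2. Pgk1 at 1.27 ± 0.31, Ldha at 1.17 ± 0.26 and Aldoa at 0.97 ± 0.23, enzymes of glycolysis, and Bnip3 at 0.93 ± 0.29, a mitophagy receptor, were between 0.55 and 1.59 on every array, and Egln1 was likewise positive on each (SD, n = 4 each). Stc2 at 1.09 ± 1.27 and Ndrg1 at 0.95 ± 1.40 (SD, n = 4 each) were high on arrays 1, 3 and 4, but at -0.70 and -0.78 on array 2, where Egln3 was at 0.13. Lox, the collagen crosslinking oxidase gene, was at -1.18 ± 2.11, a mean set by -4.33 on array 2. These genes had adjusted p-values of 0.0949 to 0.546 (limma). Of the 46 measured targets 6 have a mean log2 intensity above 16, among them Pgk1 at 16.6, Ldha at 17.2 and Aldoa at 17.5. With a running median over intensity removed, which takes away a drift of the brightest probes, the median of the list was 0.37. The ratios of these 3 genes after that removal are not given here.

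The lists for the machinery around the HIF proteins were nearer to 0. For comparison, 7.10% of all genes were higher and 7.45% lower at an unadjusted p under 0.05 (limma). The 9 measured partners and coactivators had a median of -0.12, with 0 higher and 2 lower at an unadjusted p under 0.05, those being Cited1 at -0.23 ± 0.17 and Crebbp at -0.23, and the one with the brightest probe, Cited4, was at -0.24 ± 0.53 (SD, n = 4). The 5 genes for the other VHL ligase subunits and its modifier Nedd8 had a median of 0.01 with 0 genes in either direction, Elob being at -0.11 ± 0.17 and Rbx1 at -0.12 ± 0.23. The 15 other regulators of HIF protein had a median of 0.17, with 6 higher and 1, Os9, lower, led by the scaffold gene Rack1 at 0.78 ± 0.12. Of these 15 genes 4 have a mean log2 intensity above 16, among them Rack1 and the chaperone gene Hspa8, which was at 0.41 ± 0.25. With the running median removed the median of that list was 0.05.

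Relatives of the members by enzyme class or protein family varied around 0. Their counts at an unadjusted p under 0.05 stand against 7.10% of all genes higher and 7.45% lower (limma). Of 17 measured JmjC histone demethylase genes, the family of Kdm3a, 1 was higher and 2 were lower at an unadjusted p under 0.05, with a median of -0.02, and Kdm4a and Riox2 were at -0.08 ± 0.15 and -0.03 ± 0.16. Of 14 other genes of prolyl hydroxylases and 2-oxoglutarate oxygenases, 4 were higher and 2 lower with a median of 0.05, Alkbh5 being at 0.32 ± 0.15 and Asph at 0.05 ± 0.26. Of 7 measured bHLH-PAS genes, the family of Hif1a and Arnt, 1 was higher and 1 lower with a median of -0.01, Clock being at -0.19 ± 0.35 and Per1 at -0.01 ± 0.25. None of these lists had a gene past the adjusted threshold (limma).

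**Figure D4:**
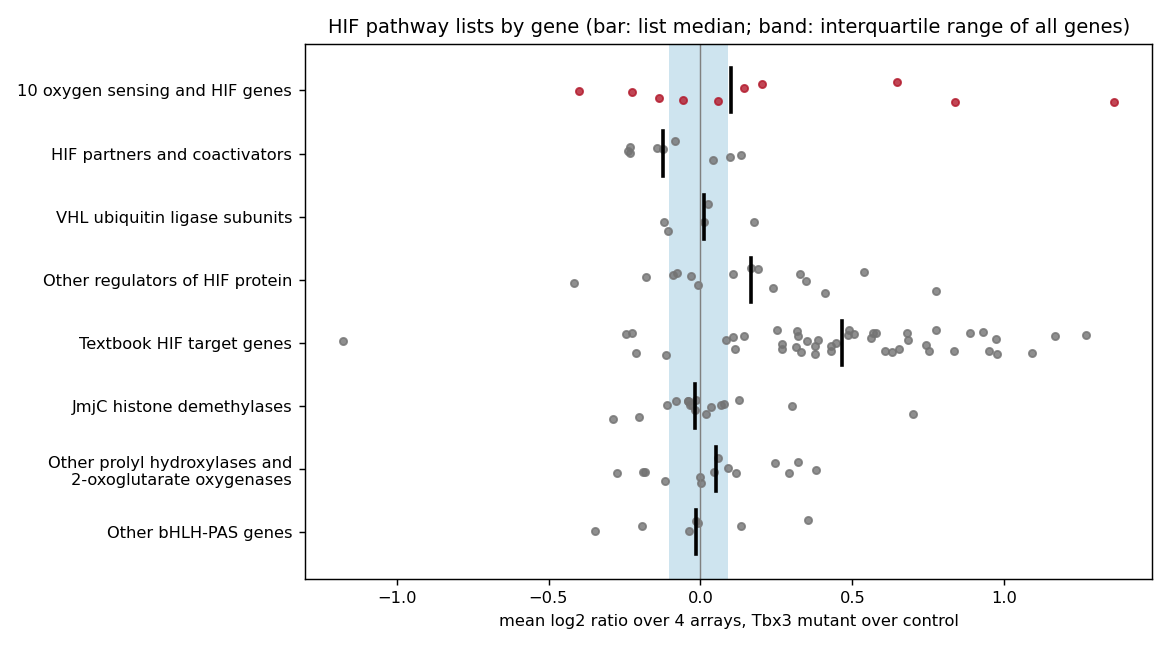
Mean log2 ratio over 4 arrays of Tbx3 mutant over control, 1 point per gene, for the 10 oxygen sensing and HIF genes (red) and the pathway lists (grey), with black bars at the list medians and a blue band over the interquartile range of all genes. The textbook HIF targets have a median of 0.47 and the other lists lie between -0.12 and 0.17.

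Cell type markers moved with some of these values, and their part in them was not tested. All 8 chamber myocardium markers were measured, and 5 of them had a positive mean ratio, with a range over the 8 of -0.24 to 1.57. Their summed level lay between 17.60 and 18.79 in mutant pools and between 17.47 and 17.73 in control pools. Mutant pool 2 was the lowest mutant pool, as it was for Egln3, and at 17.595 it was below its control at 17.625. The median ratio of the 8 was 0.13, -0.0084, 0.62 and 0.45 on arrays 1 to 4. It was thus highest on array 3, whereas Egln3 was highest on array 1, at 2.35. The 8 sarcomere markers summed to 20.11 to 20.31 in mutant pools and 19.36 to 19.70 in control pools. This difference was present on every array, as for Egln1. However, 6 of the 8 have a mean log2 intensity above 16. With a running median over intensity removed, their list had a median ratio of 0.18 against 0.59 as reported. Egln1 was at 0.66 against 0.65, but its probe has a mean log2 intensity of 12.1, well below that range. Its small change therefore does not test a link between Egln1 and the sarcomere markers. The 8 AVC and node markers summed to 13.99 to 14.36 in mutant pools and 14.80 to 14.92 in control pools. All 8 AVC markers had a usable probe. Tbx3 is among them, with a mean log2 intensity of 13.4 and a mean ratio of -1.35, so this sum partly reads the targeted gene itself. The median ratio of the 8 was -0.55, 0.15, -0.66 and -0.37 on arrays 1 to 4, and 3 of them had a positive mean ratio.

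Control pool 2 had the highest level of several other cell types. The 8 cushion mesenchyme markers summed to 16.61 to 16.82 in mutant pools, against 19.32 in control pool 2 and 16.95 to 17.02 in the other control pools. The 8 leukocyte markers summed to 13.04 to 13.48 in mutant pools, against 15.44 in control pool 2 and 13.31 to 13.69 in the other control pools. The 7 of 8 measured markers of uterus and decidua summed to 13.32 to 13.87 in mutant pools, against 14.91 in control pool 2 and 13.61 to 13.81 in the others. Control pool 2 was also the highest pool for Hif1a, Epas1 and Arnt at their brightest probes. For Hif1a, control pool 2 was at 13.02 and the other control pools were at 12.78 to 12.84, against 12.39 to 12.56 in mutant pools.

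The 8 erythroid markers summed to 20.03, 19.91, 19.45 and 19.67 in mutant pools 1 to 4, against 18.03, 18.87, 19.38 and 19.36 in control pools 1 to 4. The brightest genes weigh most in such a sum. The median ratio of the 8 was 1.18, 0.49, -0.29 and -0.14 on arrays 1 to 4, and 5 of them had a positive mean ratio. By sum and by median the erythroid ratio was highest on array 1, where the ratios of Egln3, Ankrd37 and Kdm3a were also highest. The 8 endothelial markers, the cells in which Epas1 is best known, summed to 15.17 to 15.42 in mutant pools and 15.15 to 15.33 in control pools, with a median ratio of 0.05. The 6 epicardial markers had a median ratio of 0.12. Of 6 liver and lung bud markers 1, Afp, was measured, with log2 ratios of 2.58, 1.73, 1.35 and -0.63 on arrays 1 to 4. An array gives no zero level, so no marker can be called absent.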

How the data were processed

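Total RNA of the pooled tissue was amplified, labelled and hybridised to 2-colour Agilent arrays. Images were read with Agilent Feature Extraction 9.5.1, per the submitters' processing notes. The deposited intensity columns are the scanner's mean signals, with the median local background beside them, per the file headers, and the deposited log10 ratio per spot is Cy5 over Cy3, as the table of the whole series repeats. The arrays share 1 slide and 1 scan, so no batch could be tested, and the number of arrays limits precision.

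Background was corrected with normexp (offset 50), ratios were normalised within each array by loess without control spots, and channels were scaled to a common mean intensity with Aquantile (limma 3.58.1 in R 4.3.3). Spots with non-uniform signal were dropped and spots of a probe averaged, giving log2 ratios computed here from the deposited intensity values. A probe was kept if well above background in either channel on 3 of 4 arrays, which left 28794 of 41174. The brightest probe stood for each of 19091 genes, named through RefSeq where an accession or symbol matched. The 4 ratios were tested against 0 with lmFit and eBayes, and the fit was tested on simulated data. All 10 genes and all their probes are named; from each list, the genes past the threshold with the largest changes or, failing any, the 2 brightest, and from the HIF targets the 8 largest, of which 1 is not reported here; and the 3 genes nearest to each of the 3 members with the largest positive or negative ratio. Alternatives were other background corrections, centring, filters, probe summaries, array weights, variance models and leaving out each array. Crebbp, Trf and Os9 were named after their values were seen. The genes and lists were chosen with earlier results of these data known. Probe positions are those in the files (build mm7), and exons or UTRs were not assigned. Cores were searched as letters in RefSeq promoter windows. Protein sequences and probe cross-hybridisation were not analysed here.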

Additional observations from a re-analysis of the deposited data

Results flagged for a closer look

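In each of 57 groups of 4 values (the mutant levels, control levels and ratios of the 19 probes) the value farthest from the rest was examined, and 3 stood apart by Dixon's test. Chance alone flags about 1 in 20 groups. The Ankrd37 log2 ratio on array 1 was 1.72, against 0.50 to 0.62 on the other arrays. The Ankrd37 level in control pool 4 was 11.38, against 11.14 to 11.17 in the other control pools, which lowers the ratio of array 4. The level of Hif1an at probe A_52_P49233 in control pool 2 was 7.08, against 7.35 or 7.36 in the other control pools. Egln3 was not among them, since its 4 ratios spread widely with no single value apart by this measure.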

How the results depend on the processing

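Over all genes, 1 passed the threshold as reported; 3 passed with the scanner software's processed signals, 0 with no background correction, 0 with an offset of 0, 0 with the mean over a gene's probes, 402 with array weights, 7772 with median centring (7202 higher and 570 lower), 0 to 193 with 1 array left out, and 69 with a running median removed and array 2 left out, a setting chosen after seeing the data. Of the 10 HIF pathway genes, 6 passed with median centring, 2 with array weights and 0 to 1 with 1 array left out; of their 19 probes, 8, 4 and 0 to 1 did, against 10806, 1727 and 0 to 207 of all 28794 probes. With the running median removed and array 2 left out, 0 of the 10 genes passed, Egln3 having an adjusted p of 0.0605 (limma). Some signs turned, that of Hif1a among them. With median centring Hif1a was at 0.0073, Epas1 A_51_P307954 at -0.19, Arnt A_52_P324866 at 0.22, Hif1an A_51_P521171 at 0.25 and Hif1an A_52_P49233 at 0.0258. That centring moved the median ratio of all genes to 0.23. Relative to this shift Hif1a was at -0.22 and Arnt A_52_P324866 at -0.0036, which keep their sign, and Hif1an A_51_P521171 was at 0.02, which does not. Arnt A_52_P84015 was at 0.0432 with the processed signals, 0.0084 with no background correction and -0.0856 to 0.0283 with 1 array left out. Epas1 A_51_P307954 was at -0.0127 with no background correction and -0.0410 to 0.0454 with 1 array left out. Hif1an A_52_P49233 was at -0.0721 to 0.0653 with 1 array left out. Epas1 A_52_P293443 was at 0.0385 with array weights, -0.40 to 0.0820 with 1 array left out (0.0820 without array 2) and 0.0639 with the running median also removed. The cause of these changes was not tested. Requiring signal in both channels on all arrays dropped the dim Epas1 and Arnt probes. Of the probe ratios under these settings, 236 kept direction and side of the threshold, 15 turned sign and 13 passed the threshold where the reported value did not. The test of within-array ratios is itself the paired analysis, each array pairing 1 mutant and 1 control pool. The dyes were never swapped, Hif1a, Vhl, Egln2, Egln3 and Ankrd37 rest on 1 probe each, and Epas1 A_51_P307954 is near background.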
